A study of Homo sapiens with 4 samples.

Results

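TDP-43 knockdown without azacytidine was compared with its control in human neurons, labelled induced cortical neurons, by long-read sequencing of polyadenylated RNA (PacBio Iso-Seq). The pair takes 2 of the 4 libraries of the study, chosen by their treatment labels, and the other 2 libraries repeat the comparison in neurons given 5-azacytidine. All 4 cultures came from 1 line, a KOLF2.1J induced pluripotent stem cell line in which doxycycline at 2 µg/mL switches on the neuronal transcription factor NGN2, and which expresses dCas9-BFP-KRAB, a repressor that a guide RNA directs to a promoter. In the control, labelled Control, the lentiviral guide RNA was non-targeting and no azacytidine was given. In the knockdown, labelled TDP-43 CRISPRi, the guide RNA targeted TDP-43 and no azacytidine was given. The azacytidine library had the non-targeting guide RNA and 5 µM 5-azacytidine for 72 hours, and the combined library had the TDP-43 guide RNA and the same drug. Guide RNAs were delivered before differentiation and transduced cells were selected with puromycin for 5 days and expanded as pools. The neurons therefore differentiated under the knockdown, and each library is 1 pool of 1 line. Spheroids were plated on day 8, and cultures were harvested on day 12 or day 15, with the day of each library not given in the labels. No difference below has a replicate check. Every test compares the reads of 1 library with those of another, and intervals cover counting error only.

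TDP-43, encoded by TARDBP, is a nuclear RNA-binding protein that binds UG-rich RNA and keeps cryptic exons, stretches of intron that resemble exons, out of mature transcripts. It also regulates its own mRNA. Its loss from the nucleus is a hallmark of amyotrophic lateral sclerosis and frontotemporal dementia, and in human neurons it leads to truncated STMN2 transcripts and to cryptic exons in many other genes.

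The control library held 595158 reads in genes and the knockdown library 767621. Transcript-assigned reads made up 63.9% of the control and 58.5% of the knockdown library, and 107292 and 104382 were full-length. Genes with longer transcripts took more of the knockdown library: the mean transcript length, weighted by reads, was 4941 bases in the control and 5341 bases in the knockdown. Levels were scaled by TMM factors (1.04 for the control and 0.893 for the knockdown) and are given as CPM. On that scale the median log2 ratio of knockdown to control across the 8729 genes averaging 20 or more reads was 0.18, so list medians below are given beside this value.

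TARDBP, the targeted gene (ENSG00000120948.19, chromosome 1, 11012344 to 11030528, hg38), was examined first. It had 104 reads (168 CPM) in control and 72 reads (105 CPM) in knockdown neurons, a level of 62.6% of the control. With azacytidine it had 73 reads (148 CPM) without the knockdown and 43 reads (88.7 CPM) with it. Both knockdown libraries were below their partners. The log2 ratio was -0.67 (95% interval -1.13 to -0.23, adjusted p = 0.017 by the exact binomial test) and did not reach the 2-fold size that a call required. The main TARDBP transcript had 73 reads in control and 43 in knockdown neurons, and its level was 53.5% of the control (log2 ratio -0.89, interval -1.49 to -0.35). The direction of TARDBP thus matched the labels in both pairs.

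Unannotated exons were compared next. An unannotated exon locus is a stretch covered by exons of unannotated transcripts and by no annotated exon on its strand, and its use is the share of the gene's transcript-assigned reads that fall in transcripts holding it. Of 122 loci with enough reads, 11 in 10 genes had a higher share in the knockdown (9.02%) and 4 had a lower share (3.28%), at an adjusted p under 0.05 by Fisher's exact test and a change of at least 10 percentage points. Of the 11, 8 had 0 reads in the control, and these met the read minimum through the knockdown library alone, so their number says nothing further about direction. With azacytidine 9 of 92 loci were called higher (9.78%) and 2 lower (2.17%) by the same rule. The annotated junctions that 4 of the internal exons interrupt are shown because they give the coding context into which each exon is inserted. Each line is the transcript sequence of GENCODE 29, with the last 15 bases before the intron in lower case and the first 15 bases after it in capitals.
EPB41L4A: agaagaaataaccagATATCAGTTTTTCTT
AARS1: ctggcaaaatttgggGCTGGATGACACCAA
UBASH3B: ccccagagcccgcgcACAAAAAGCCTTGGC
GPSM2: tcatgttcgttacagAATGGAAGCTTCTTG

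EPB41L4A, a member of the band 4.1 family of membrane skeleton proteins, had the highest use of an internal exon. Its 75-base exon (chromosome 5, 112267210 to 112267284, minus strand, hg38) lies in the intron between the lower-case and the upper-case bases of its junction above, 879 bases before the downstream exon. It had 0 of 24 transcript reads in control and 23 of 39 in knockdown neurons, a share of 59.0% (Wilson interval 43.4% to 72.9%, adjusted p = 1.4e-05). With azacytidine it had 0 of 39 and 19 of 26 reads. The exon was at 0 in both libraries with the non-targeting guide RNA.

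AARS1 encodes the cytosolic alanyl-tRNA synthetase. Its 87-base exon (chromosome 16, 70272796 to 70272882, minus strand) had 0 of 56 reads in the control (a count of 0 leaves room for 5.36%) and 12 of 70 in the knockdown (17.1%, adjusted p = 0.013). With azacytidine it had 0 of 60 and 13 of 99 reads, and that pair passed the same test. The exon's length is a multiple of 3, as is that of the EPB41L4A exon.

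UBASH3B encodes a phosphatase that acts in receptor tyrosine kinase and T cell receptor signalling. Its 35-base exon (chromosome 11, 122744155 to 122744189, plus strand) sits within an intron of 120008 bases. It had 0 of 33 reads in control and 12 of 49 in knockdown neurons, a share of 24.5% (adjusted p = 0.013). With azacytidine it had 0 of 31 and 14 of 25 reads, and the change without azacytidine less that with it was -31.5 points (interval -54.0 to -5.7).

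GPSM2 encodes a protein that orients the mitotic spindle. Its 115-base exon (chromosome 1, 108896317 to 108896431, plus strand) had 0 of 27 reads in control and 11 of 42 in knockdown neurons, a share of 26.2% (adjusted p = 0.041). With azacytidine it had 0 of 10 and 5 of 14 reads, too few for the test.

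SEPTIN11, which encodes a filament-forming GTPase of the cytoskeleton, and FLCN, which encodes folliculin, a regulator of nutrient signalling at the lysosome, had the other higher internal exons. The 97-base SEPTIN11 exon (chromosome 4, 77032457 to 77032553) had 2 of 163 reads in control and 34 of 218 in knockdown neurons, shares of 1.23% and 15.6% (adjusted p = 1.4e-05). With azacytidine it had 0 of 130 and 39 of 115 reads, and the change without azacytidine less that with it was -19.5 points (interval -30.0 to -9.4). The 208-base FLCN exon (chromosome 17, 17236476 to 17236683) had 0 of 30 reads in control and 10 of 43 in knockdown neurons (adjusted p = 0.039). FLCN differed from the exons above in the treated pair, where the exon was already present without the knockdown, at 5 of 26 reads, and stood at 6 of 29 with it.

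STMN2, which encodes the neuronal tubulin-binding protein stathmin-2, and ADARB2, which encodes a brain RNA-editing enzyme homologue, had higher use of an unannotated last exon. The STMN2 exon (chromosome 8, 79616822 to 79619794, plus strand) ends a transcript with 2 exons. It had 0 of 80 reads in control and 12 of 31 in knockdown neurons (38.7%, adjusted p = 2.2e-06), and all 12 reads were uniquely assigned. The treated pair had 2 of 93 and 5 of 18 reads in it, too few for the test. The annotated 5-exon STMN2 transcript had 77 reads in control and 19 in knockdown neurons, a level of 22.3% of the control (log2 ratio -2.13, interval -2.97 to -1.42). Its full-length reads went from 53 to 3. The gene table shows little of this, since all STMN2 reads together were 117 and 104 (log2 ratio -0.31, adjusted p = 0.27). The ADARB2 last exon (chromosome 10, 1642455 to 1645966, minus strand) had 0 of 22 and 11 of 26 reads (adjusted p = 0.0051), against 0 of 24 and 9 of 34 with azacytidine.

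CAMK2B, which encodes the beta subunit of the calcium/calmodulin-dependent kinase II of synapses, had higher use of an unannotated first exon. That exon (chromosome 7, 44222117 to 44224233, minus strand) starts 101361 bases downstream of the RefSeq start of the gene (GRCh38.p14). It had 0 of 28 reads in control and 11 of 25 in knockdown neurons (44.0%, adjusted p = 0.00089), and 0 of 42 and 13 of 45 reads with azacytidine. PKNOX1, which encodes a homeodomain transcription factor of the TALE class, had a 259-base unannotated transcript whose 2 exons (chromosome 21, 42991141 to 42991379 and 42992028 to 42992047) are both counted among the 11 loci. It had 1 of 25 reads in control and 31 of 56 in knockdown neurons (55.4%, adjusted p = 9.8e-05), and 27 of the 31 reads were full-length. With azacytidine the same transcript had 0 of 14 and 1 of 25 reads, so the change was larger without the drug by 47.4 points (interval 21.8 to 72.6). Its loci were called on counts that enter this interval, so the interval is no further result. The main PKNOX1 transcript, with 20 and 22 reads, had 97.7% of its control level.

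The 4 loci with lower use were 3 first exons and 1 internal exon. FAM20B encodes a xylose kinase of proteoglycan synthesis, and its unannotated first exon starts 19 bases downstream of the RefSeq start. All 24 control reads used it, against 11 of 51 in the knockdown (21.6%, adjusted p = 2e-09), while the annotated transcript ENST00000263733.5 went from 0 to 40 reads. Only 2 control reads and 9 knockdown reads of FAM20B were uniquely assigned to a transcript. In the treated pair the shares were 10 of 19 and 19 of 32. SP8, a zinc finger transcription factor of the developing forebrain, had 51 of 61 and 18 of 44 reads (adjusted p = 0.00014), and 1 of 2 and 0 of 2 with azacytidine. HIP1, an endocytic adaptor, had 63 of 64 and 58 of 71 reads (adjusted p = 0.013), and its treated pair had 21 of 48 and 16 of 41. A RefSeq start of HIP1 (75639242, GRCh38.p14) lies within this first exon (chromosome 7, 75639051 to 75639440, minus strand). CBR4, a mitochondrial carbonyl reductase, had 10 of 21 and 5 of 38 reads in an 84-base internal exon (adjusted p = 0.045), and 5 of 20 and 0 of 11 with azacytidine. In the treated pair FAM20B and HIP1 were tested and not called, and SP8 and CBR4 had too few reads for the test.

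**Figure D1:**
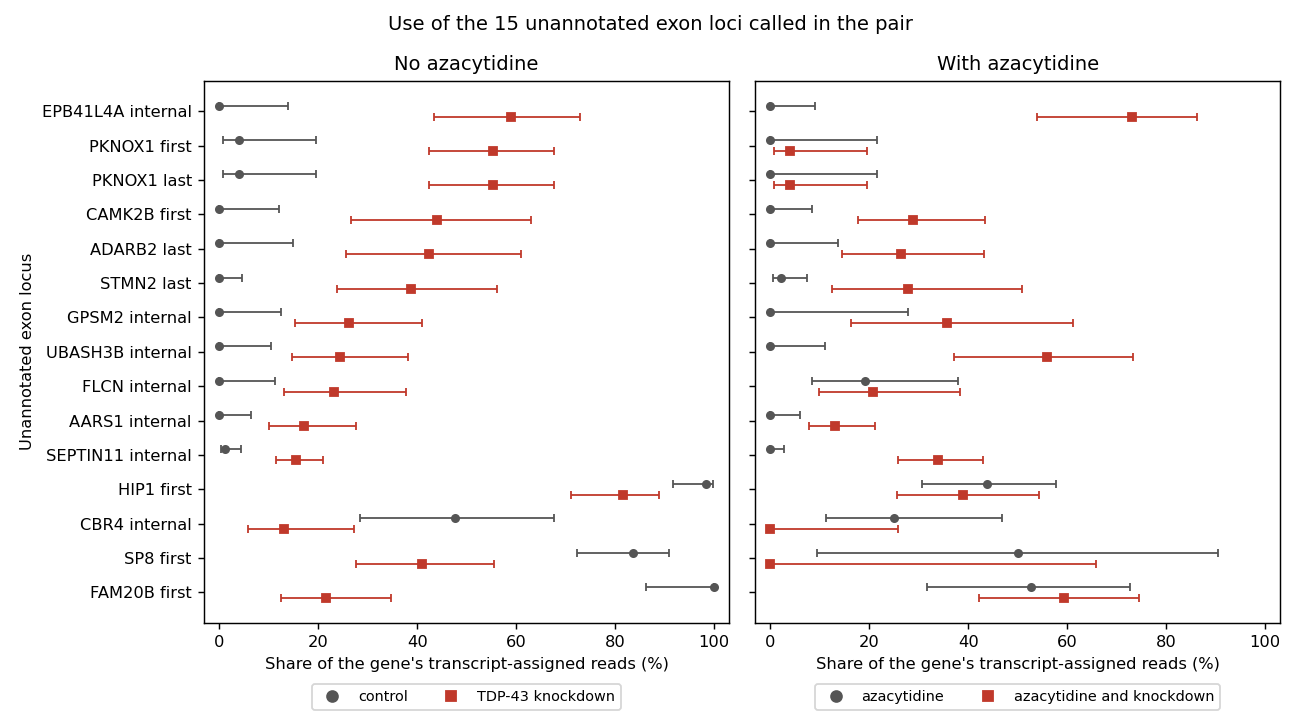
Share of the gene's transcript-assigned reads (%, horizontal axis) in each of the 15 unannotated exon loci called in the pair (rows), in the 2 libraries without azacytidine (left) and the 2 with it (right). Grey circles are libraries with the non-targeting guide RNA, red squares libraries with the TDP-43 guide RNA, and bars 95% Wilson intervals; in the left panel, 8 of the 15 grey circles lie at 0.

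Known TDP-43 targets were followed through a list of 43 genes with cryptic exons or altered splicing in published work, of which 40 were tested. An unannotated locus had at least 3 reads in 9 of them. These 9 loci had 0 reads in the control and so met that minimum through the knockdown library alone. The members EPB41L4A, AARS1, GPSM2, STMN2 and CAMK2B are described above, and all 5 were tested and called. The remaining 4 had fewer reads in this pair than the test required. HDGFL2, a chromatin-binding growth factor family member, had 0 of 21 reads in control and 8 of 20 in knockdown neurons in a 138-base exon. With azacytidine the HDGFL2 exon had 0 of 29 and 13 of 29 reads and was called higher. ACTL6B, a subunit of a neuronal chromatin remodelling complex, had 0 of 5 and 4 of 5 reads. PHF2, a histone demethylase, had 0 of 33 and 5 of 50 reads. IGLON5, a cell adhesion molecule, had 0 of 23 and 7 of 24 reads in an unannotated first exon, and 0 of 32 and 0 of 34 reads in the treated pair. The IGLON5 change was larger without azacytidine by 29.2 points (interval 6.6 to 51.9). The locus was listed through the same 7 knockdown reads, so that interval is no further result. HDGFL2, ACTL6B and PHF2 had more such reads in both knockdown libraries than in their partners.

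Gene levels of these targets were also compared. Of the 40 tested, 1 was called higher and 1 lower (2.5% each, against 6.74% and 2.36% of all genes), with a median log2 ratio of 0.08 against 0.18 for all genes. TRRAP, a scaffold of histone acetyltransferase complexes, was higher, with 76 reads in control and 189 in knockdown neurons. LRP8, a receptor for reelin, was lower, with 162 and 63 reads, but its transcript-assigned reads were 16 and 19. Neither call was made in the treated pair, and for both the ratios of the 2 pairs differed (adjusted p = 0.0051 for TRRAP and 1.8e-06 for LRP8). Counted on transcript-assigned reads alone, 2 of 34 targets were called, both lower, where 0.531% of all genes were lower. They were STMN2, with 80 and 31 reads, and MADD, a Rab guanine nucleotide exchange factor, with 68 and 29.

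The share of a gene's reads that could be assigned to any transcript was compared as a measure of its own. It was lower in the knockdown in 670 of 8723 genes (7.68%) and higher in 202 (2.32%) by Fisher's exact test with the same rule, and the median change was -3.5 points. Of the 542 lower genes tested with azacytidine, 73 were also called lower there, where 5.79% of all genes were lower and 1.49% higher. Among the 40 TDP-43 targets tested 5 were lower and 3 higher, against the 7.68% and 2.32% of all genes. ARHGAP32, a GTPase-activating protein of synapses, had 45 of 45 reads assigned in the control and 52 of 94 in the knockdown, and 26 of 28 and 31 of 54 with azacytidine. ATG4B, a protease of autophagosome formation, had 45 of 64 and 27 of 76 reads assigned, and 40 of 69 and 32 of 105 with azacytidine. For STMN2 the shares were 80 of 117 and 31 of 104, and 93 of 140 and 18 of 64 with azacytidine. In ARHGAP32, ATG4B and STMN2 the change passed the test in both pairs. CELF5, an RNA-binding protein, had 56 of 68 and 39 of 86 reads assigned, and MADD had 68 of 110 and 29 of 86. Neither was called with azacytidine. The higher ones were DNM1, the dynamin of synaptic vesicle endocytosis, with 52 of 155 and 63 of 120, GPSM2 with 27 of 102 and 42 of 73, and LRP8. GPSM2 was called higher with azacytidine too, at 10 of 36 and 14 of 17 reads, and DNM1 and LRP8 were not called there.

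Among all genes the largest losses of assigned reads were in 3 long non-coding RNAs and 2 coding genes. CNN3-DT had 24 of 29 reads assigned in the control and 0 of 37 in the knockdown, MSANTD2-AS1 had 17 of 18 and 3 of 31, and MCPH1-AS1 had 9 of 9 and 6 of 41. SNX24, a sorting nexin, had 22 of 25 and 3 of 40, and PTPRT, a receptor tyrosine phosphatase, had 12 of 12 and 6 of 32. The largest gains were in MIR124-2HG (17 of 104 and 24 of 24 reads), the desmosomal cadherin DSG2 (17 of 61 and 31 of 32), the DNA repair helicase FANCM (10 of 65 and 20 of 23), THUMPD3-AS1 (33 of 122 and 70 of 79) and the phosphodiesterase PDE1C (4 of 18 and 24 of 25). With azacytidine MIR124-2HG, THUMPD3-AS1, CNN3-DT and PTPRT were tested and not called, and the other 6 had too few reads for the test. Reads with no transcript numbered 87 and 0 in MIR124-2HG, 3 and 37 in SNX24 and 5 and 37 in CNN3-DT.

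Shares of annotated and unannotated transcripts within their genes were then compared. Of 12892 transcripts tested, 569 had a higher share in the knockdown (4.41%) and 501 a lower share (3.89%), in 709 genes together. Of these 1070, 289 (27.0%) had no uniquely assigned read in either library, so their values rest on reads that the authors' program divided between transcripts, and 348 had at least 10 uniquely assigned reads. In 44 of the 294 higher transcripts that were tested in both pairs the call was the same with azacytidine (15.0%, and 17.6% of the 250 called there), and in 46 of 299 lower ones (15.4%, and 18.4% of 250). Of all transcripts tested with azacytidine, 3.29% were higher and 3.22% lower.

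CCDC39, which encodes an axonemal ruler protein of motile cilia, had one of the complete switches. The 16-exon transcript ENST00000650641.1 had all 23 control reads and 0 of 39 knockdown reads, and the 5-exon transcript ENST00000652010.1, at the 3′ end of the gene, had 0 of 23 and 39 of 39 (adjusted p = 1.1e-14 for both). All of these reads were uniquely assigned, and 0 were full-length. The combined library went against this, with 13 of 15 reads in the 16-exon transcript. INPPL1, which encodes a phosphoinositide phosphatase, had 4 of 25 and 45 of 45 reads in ENST00000298229.7, with 2 and 26 uniquely assigned. With azacytidine it had 2 of 13 and 0 of 4 reads, too few for the test. AMD1, the decarboxylase of polyamine synthesis, had 15 of 55 and 53 of 61 reads in ENST00000672937.2, with 4 and 16 full-length. Its share was lower in the combined library, at 6 of 16 reads, than with azacytidine alone, at 22 of 39, and was not called there. The AMD1 transcript and those of the next paragraph were chosen after their values were seen, as called transcripts with at least 20 uniquely assigned reads.

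ARGLU1, a transcriptional coactivator and splicing factor, had 29 of 80 and 99 of 131 reads in the 3-exon transcript ENST00000472226.2, with 16 and 91 uniquely assigned. Its share moved the other way with azacytidine, from 56 of 79 to 6 of 27 reads. GRB2, the adaptor between receptor tyrosine kinases and Ras, had 8 of 57 and 38 of 72 reads in ENST00000392564.5, and the treated libraries stood at 33 of 73 and 32 of 65. BACE1, the beta-secretase that cleaves the amyloid precursor protein, had 13 of 74 and 53 of 87 reads in ENST00000679585.1, and 17 of 57 and 5 of 62 with azacytidine. HSP90B1, an endoplasmic reticulum chaperone, had 0 of 99 and 43 of 89 reads in ENST00000681941.1, and 25 of 53 and 24 of 37 with azacytidine. PHLDA1, a pleckstrin homology-domain protein, was called in both pairs: ENST00000266671.10 had 46 of 46 and 22 of 44 reads, and 43 of 43 and 19 of 38 with azacytidine. Its uniquely assigned reads were 29 and 0, and 36 and 0 with azacytidine. The shares in both knockdown libraries therefore rest on reads that the authors' program divided between transcripts. In each, this transcript held as many reads as the rest of the gene. Whether that even division reflects the RNA or the assignment was not tested.

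The remaining named switches had few uniquely assigned reads. ATF7IP, a partner of the histone methyltransferase SETDB1, had 58 of 74 and 0 of 106 reads in ENST00000261168.9, and 0 of 74 and 89 of 106 in ENST00000536444.5, with 0 uniquely assigned reads for either. Both were called in the same direction with azacytidine, at 52 of 60 and 17 of 37 reads, and 1 of 60 and 17 of 37. FANCA, of the Fanconi anaemia DNA repair complex, had 0 of 32 and 35 of 41 reads in ENST00000568369.6, with 4 uniquely assigned. With azacytidine it had 2 of 4 and 1 of 7. ATP11A, a phospholipid flippase, had 57 of 58 and 0 of 74 reads in ENST00000487903.5, with 3 uniquely assigned. The treated libraries had 8 of 23 and 14 of 37, and the transcript was not called there. GOLGA3, a Golgi structural protein, had 34 of 36 and 0 of 69 reads in ENST00000450791.8, with none uniquely assigned, and was called lower with azacytidine too. ACER2, a ceramidase of the Golgi, had 0 of 22 and 20 of 24 reads in an unannotated transcript, with 2 uniquely assigned, and 0 of 8 and 5 of 18 with azacytidine. ZNF407-AS1 had 31 of 39 and 0 of 29 reads in ENST00000580048.1, of which 14 were full-length. The treated libraries had 1 of 25 and 2 of 25 reads in it, so only the control library was high. C4orf3, a small membrane protein, had more support, since the 14 knockdown reads of ENST00000399075.6 included 9 uniquely assigned ones and the 27 control reads of ENST00000504110.2 included 21 full-length ones. The treated libraries of C4orf3 had all 27 and all 20 reads in ENST00000504110.2.

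On the gene table, 588 of the 8729 genes tested were called higher in the knockdown (6.74%) and 206 lower (2.36%), at an adjusted p under 0.05 by the exact binomial test and a ratio of at least 2-fold. Scaled by total counts instead, 329 were higher and 380 lower, so the share of lower calls went from 25.9% to 53.6% and the median log2 ratio of all genes from 0.18 to -0.04. A fit over all 4 libraries, which adds knockdown and azacytidine and takes their interaction as error (edgeR's quasi-likelihood test), called 3 genes higher and 0 lower, with 749 genes at an unadjusted p under 0.05. Those 3 were RMST, MVP and ENSG00000287615.2.

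Genes called higher had a median of 68.8% of reads assigned to transcripts in the control and 39.1% in the knockdown, against 71.1% and 65.7% over all genes tested. Of the 588, 160 (27.2%) were also at least 2-fold higher on transcript-assigned reads. Genes called lower had 40.1% and 60.0%, and 100 of 206 (48.5%) were at least 2-fold lower on transcript-assigned reads. Tested on those reads alone, 107 of 6589 genes were higher (1.62%) and 35 lower (0.531%). The calls made on both sets of reads numbered 67 higher and 23 lower.

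**Figure D2:**
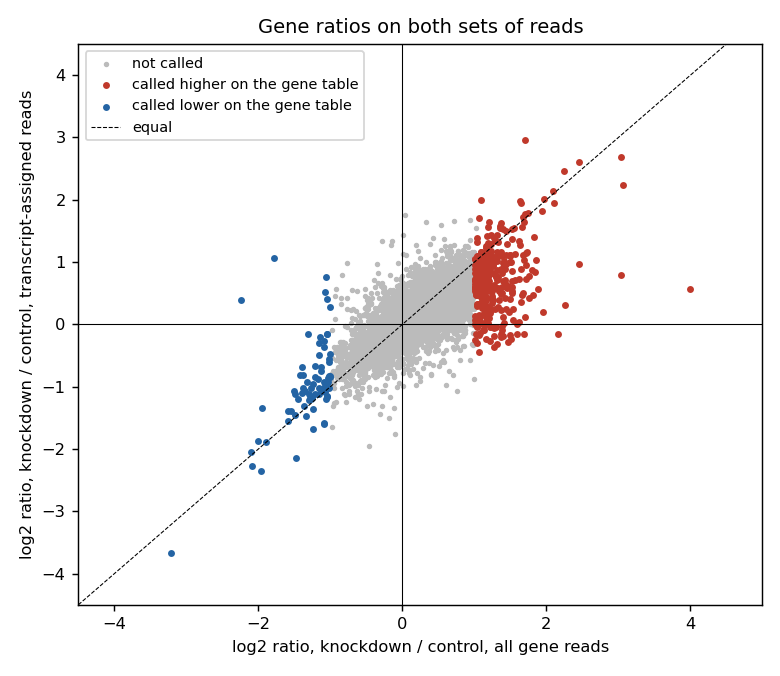
Log2 ratio of knockdown to control for the 6589 genes averaging 20 or more transcript-assigned reads, on all gene reads (horizontal axis) and on transcript-assigned reads (vertical axis), each with its own TMM factors. Points are genes, coloured by their call on the gene table; 309 of the 343 red points lie above 0 on the vertical axis, and 73 of the 79 blue points below it.

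The 12 genes highest by the lower bound of their ratio were 8 non-coding RNAs and 4 coding genes, and their reads seldom matched a transcript. Together they had 2305 reads in the knockdown, of which 144 (6.25%) were assigned to one. RMST, a long non-coding RNA that works with SOX2 in neurogenesis, had 40 reads in control and 714 in knockdown neurons (log2 ratio 4.00, interval 3.55 to 4.51), but 24 and 38 transcript-assigned reads. It had 7 and 50 reads with azacytidine and was called higher there too. PLCB4, a phospholipase C of G protein signalling, had 103 and 935 reads, of which 36 and 67 were assigned. INSYN2A, an inhibitory synapse protein, had 5 and 75 reads, and 10 and 60 with azacytidine. NFIB, a nuclear factor I transcription factor, had 2 and 49 reads, and ZNF221, a zinc finger gene with near relatives, had 2 and 71. LINC01277 had 0 and 56 reads, at least 16.9-fold higher against a floor of 3 reads, and LINC01664 had 0 and 42, at least 12.7-fold higher. The remaining 5 were PCDH9-AS2, SEPTIN7-DT, LINC01505, LINC01876 and LINC02315, with 1 to 5 reads in control and 53 to 85 in knockdown neurons. Whether the counting used strand is not given in the sources used here, so reads of an antisense RNA and of the gene opposite cannot be told apart.

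The 12 lowest genes were of mixed kinds. KIAA0408, a coding gene of little known function, had 88 reads in control and 10 in knockdown neurons (log2 ratio -3.22, interval -4.39 to -2.34), and transcript-assigned reads of 77 and 6. ARPC1B, a subunit of the actin-nucleating Arp2/3 complex, had 51 and 6 reads, and 44 and 5 with azacytidine, where it was called lower as well. RALYL, an RNA-binding protein of neurons, had 179 and 49 reads. MIR99AHG, the host RNA of a microRNA cluster, had 346 and 62 reads but 18 and 18 assigned to transcripts. LINC00398 had 60 and 0 reads, at least 22.1-fold lower against the floor of 3 reads, with 0 assigned, and NR1I3, a nuclear receptor, had 43 and 0, at least 15.8-fold lower, with 1 and 0 assigned. ANKRD10-IT1 (52 and 1 reads) lies within ANKRD10, which was itself called higher, with 79 and 199 reads. FAM86JP, ZSWIM7, MIR124-2HG and VLDLR-AS1 were also in the set.

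Genes called on both sets of reads were examined because their difference does not rest on reads without a transcript. Those named here were picked from the 67 and the 23 after their values were seen. MVP, the major vault protein, had 6 and 58 reads (transcript-assigned 5 and 37), and 9 and 93 with azacytidine. CSNK2A2, a catalytic subunit of casein kinase 2, had 26 and 114 reads (24 and 105), and 26 and 53 with azacytidine. ELAPOR1, a lysosomal membrane protein, had 10 and 96 (7 and 37), and 15 and 74 with azacytidine. ADSL, the adenylosuccinate lyase of purine synthesis, had 93 and 341 (60 and 144), and 108 and 567 with azacytidine. These 4 genes were called higher in both pairs. Of the 67, 43 were tested with azacytidine, and 7 of these in all were called higher there. The ratio differed between the pairs by the exact conditional test in 14 of the 43, against 8.81% of all genes tested in both. The 43 were chosen on counts that enter that test. CDK6, a G1 cyclin-dependent kinase, had 53 and 148 reads, and KITLG, the ligand of the KIT receptor, had 63 and 230. Neither was tested with azacytidine, where CDK6 had 8 and 10 reads and KITLG 0 and 0.

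Among the 23 genes lower on both sets of reads, ACTB, which encodes beta-actin, had 427 and 156 reads (transcript-assigned 297 and 120), and 295 and 69 with azacytidine. ACTG1, gamma-actin, had 205 and 92, and 166 and 64. PTMA, prothymosin alpha, had 172 and 49, and 145 and 45, and MARCKSL1, an actin-binding substrate of protein kinase C, had 63 and 29, and 160 and 67. These 4 were called lower in both pairs, and they are all that were among the 17 of the 23 tested with azacytidine. GLRX2, a glutaredoxin, had 56 and 14 reads without the drug but 29 and 35 with it, and the ratios differed (adjusted p = 0.00042). ACTB, ACTG1 and PTMA have near-identical copies in the genome, so their reads are uncertain where the counting could divide them.

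The ratios differed with transcript length. The median log2 ratio was -0.01 for genes with a mean transcript length under 1500 bases, -0.14 from 1500 to 2500, 0.10 from 2500 to 4000, 0.25 from 4000 to 6000 and 0.38 from 6000 bases upward. Of genes of 6000 bases and over, 8.91% were called higher and 0.405% lower. In the treated pair the medians ran from -0.40 for the shortest class to 0.14 and 0.12 for the longest classes. The part of length in any single gene's ratio was not tested, but the lists below are given with their medians after a smooth trend over length was removed.

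**Figure D3:**
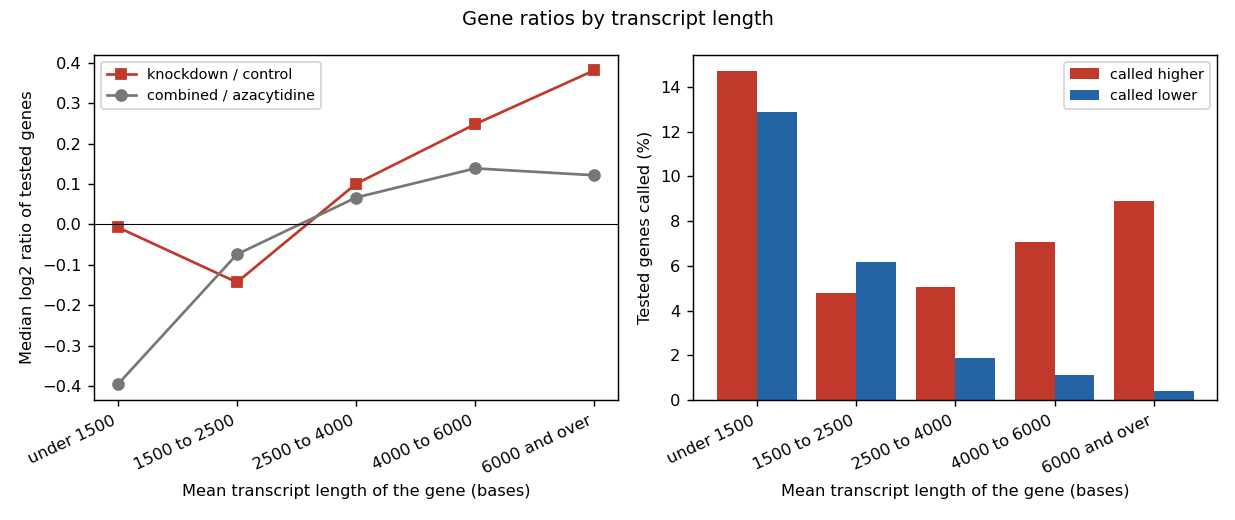
Left, median log2 ratio of tested genes (vertical axis) by mean transcript length in bases (horizontal axis), for knockdown against control (red squares) and for combined treatment against azacytidine (grey circles). Right, percent of tested genes called higher (red) and lower (blue) in knockdown against control; the called-lower bars fall from 12.9% in the shortest class to 0.405% in the longest.

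Lists of channel and synaptic genes had medians above that of all genes. Of 25 tested voltage-gated channel genes, 9 were called higher (36.0%, against 6.74% of all genes) and 0 lower (2.36% of all genes), with a median log2 ratio of 0.72 (0.35 with the length trend removed). SCN1A, a sodium channel alpha subunit, had 3 reads in control and 40 in knockdown neurons, and CACNA1D, an L-type calcium channel, had 8 and 38. For SCN1A and CACNA1D 4 and 6 knockdown reads were assigned to transcripts. The calcium channel beta subunit CACNB4 had 12 and 39 reads, and KCNQ3, a subunit of the M-type potassium channel, had 29 and 91. CACNB4, KCNQ3 and the calcium channel accessory subunit CACNA2D2 (24 and 61 reads) were also called on transcript-assigned reads. CACNA2D1, with 144 and 412 reads, SCN2A, CACNA1H and HCN3 completed the 9.

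Postsynaptic genes had 6 of 26 called higher (23.1%, against 6.74% of all genes) and 0 lower, with a median of 0.58 (0.39 with the trend removed). DLG1, a scaffold of the PSD-95 family, had 19 and 180 reads, of which 12 and 24 were assigned. SHANK1, a scaffold of excitatory synapses, had 21 and 69 reads and was the member also called on transcript-assigned reads, with 10 and 32. GABRA2, a GABA-A receptor subunit, had 11 and 42 reads and GRIA1, an AMPA receptor subunit, had 36 and 87. GPHN, the scaffold gephyrin of inhibitory synapses, and INSYN2A were the others. Presynaptic genes had 3 of 25 called higher (12.0%, nearer the 6.74% of all genes) and 0 lower, with a median of 0.40 (0.13 with the trend removed): PPFIA2, a liprin of the active zone (69 and 203 reads), ERC2 (36 and 95) and RIMS2 (119 and 273), both active zone scaffolds.

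Axon guidance genes had 4 of 32 called higher (12.5%, nearer the 6.74% of all genes) and 0 lower, and 31 of 32 ratios were above 0, with a median of 0.54 (0.21 with the trend removed). The called members were SEMA5B, a transmembrane semaphorin (52 and 166 reads), and the ephrin receptors EPHA3 (30 and 78), EPHA5 (42 and 103) and EPHA7 (114 and 256). SEMA5B was called higher with azacytidine too, at 29 and 90 reads. EPHA3, EPHA5 and EPHA7 had 2 to 9 reads in the combined library, and 14, 22 and 15 in the azacytidine library.

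Pan-neuronal genes had a median of 0.01, below that of all genes, and 2 of 21 were called higher (9.52%, against 6.74% of all genes). ELAVL4, a neuronal RNA-binding protein, had 89 and 256 reads, and 63 and 164 with azacytidine, but its transcript-assigned reads were 57 and 53. L1CAM, an adhesion molecule of axons, had 63 and 140. Axonal cytoskeleton and transport genes had a median of 0.18, with 1 of 36 called higher and 1 lower. That is 2.78% each, against 6.74% and 2.36% of all genes. The higher member was DYNC1I1, a dynein intermediate chain (53 and 188 reads), and the lower was TUBA1A, an alpha-tubulin with near-identical relatives (252 and 118, and 248 and 89 with azacytidine).

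Ribosomal protein and respiratory chain lists had medians below that of all genes. Of 17 tested cytosolic ribosomal proteins, 3 were called lower (17.6%, against 2.36% of all genes) and 0 higher, 2 of 17 ratios were above 0, and the median was -0.61 (-0.53 with the trend removed). RPLP0 had 37 and 17 reads, RPL3 had 58 and 30 and RPL22 had 54 and 28. Of 53 members of this list 36 had too few reads for the test. Respiratory chain subunits had 3 of 17 called lower (17.6%, against 2.36% of all genes) and 0 higher, with a median of -0.28 (-0.48 with the trend removed). The members were SDHB of complex II (65 and 19 reads, with 8 and 9 assigned to transcripts), ATP5F1A of the ATP synthase (66 and 24) and UQCRC1 of complex III (48 and 25). ATP5F1A, RPLP0 and RPL3 were lower on transcript-assigned reads as well.

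Stress, cholesterol and growth lists had 0 to 2 calls each. In the integrated stress and unfolded protein response 1 of 11 genes was lower (9.09%, against 2.36% of all genes), the sestrin SESN2 (37 and 19 reads), and the median was -0.24. None of 19 cholesterol genes was called by the exact binomial test, with a median of -0.17; HMGCS1, the synthase of the pathway's early steps, had 230 and 210 reads. Of 11 p53 targets 2 were higher (18.2%, against 6.74% of all genes), the DNA repair factor XPC (30 and 77) and RRM2B, a ribonucleotide reductase subunit (36 and 90, with 35 and 87 uniquely assigned). RRM2B moved the other way with azacytidine, from 40 to 5 reads. Of 30 cell cycle genes 2 were lower (6.67%, against 2.36% of all genes), the kinetochore gene CENPK (85 and 23 reads, but 12 and 17 on transcript-assigned reads) and TYMS, thymidylate synthase (40 and 20).

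Of 56 splicing regulators and RNA-binding proteins 2 were higher (3.57%, against 6.74% of all genes), ELAVL4 and PTBP2, the neuronal polypyrimidine tract-binding protein, which had 196 and 453 reads (123 and 200 assigned). The list median of 0.19 was close to that of all genes. Of 25 genes of amyotrophic lateral sclerosis and frontotemporal dementia 1 was higher and 1 lower (4.0% each, against 6.74% and 2.36% of all genes). FIG4, a phosphoinositide phosphatase, was the higher one (40 and 127 reads, but 33 and 30 assigned). SQSTM1, the autophagy receptor p62, was the lower one (52 and 24, with 32 and 13 assigned). Counted on transcript-assigned reads, 2 of these 25 genes were higher (1.62% of all genes) and 0 lower (0.531% of all genes). None of the 25 was called on both sets of reads. Of 23 autophagy and lysosome genes 1 was higher and 1 lower (4.35% each, against the same shares of all genes). HEXA, a lysosomal hexosaminidase, was the higher one (19 and 48 reads), and SQSTM1 was the lower one. In 5 tested genes of iron storage and uptake none was called by the exact binomial test; TFRC, the transferrin receptor, had 97 and 128 reads.

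**Figure D4:**
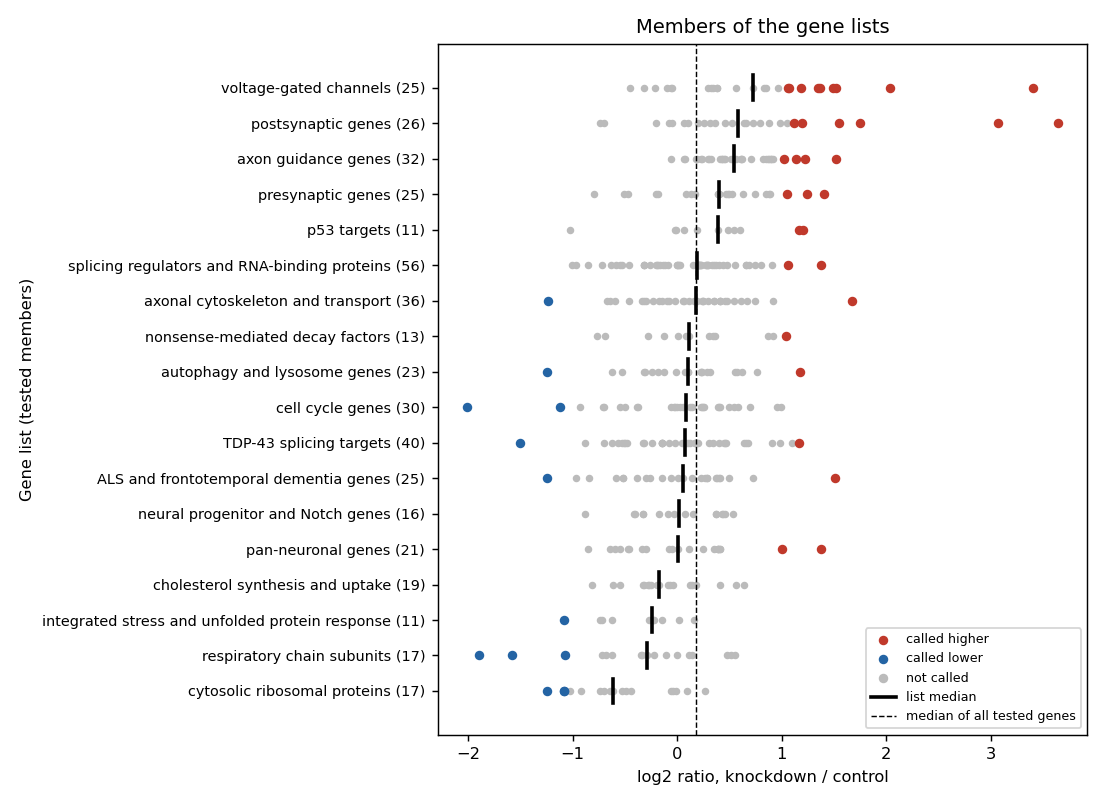
Log2 ratio of knockdown to control (horizontal axis) for the tested members of the 18 gene lists with at least 8 of them (rows, number tested in brackets). Points are genes, red where called higher, blue where called lower and grey otherwise; black bars are list medians and the dashed line is the median of all tested genes at 0.18. The channel, postsynaptic and axon guidance lists have their bars furthest to the right, and ribosomal proteins furthest to the left.

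Neuronal identity was checked on marker genes. Among the pan-neuronal genes MAP2 had 540 and 761 reads and DCX 247 and 362, while UCHL1 had 56 and 34. Of the 21 tested, 11 had a log2 ratio above 0, with a median of 0.01 against 0.18 for all genes. Cortical glutamatergic markers summed to 465 and 603 reads. Of the 15, 7 could be tested and none was called. SLC17A6 had 101 and 170 reads and POU3F2 98 and 123, while BCL11B had 0 and 2 and NEUROD6 had 0 in both libraries. Markers of peripheral sensory or autonomic neurons summed to 331 and 446 reads, with ISL1 at 145 and 190. The name cortical is that of the labels, and these marker values do not settle it. The progenitor factor PAX6 had 290 and 313 reads in this pair, but 3 and 4 with azacytidine. Markers of microglia summed to 7 and 5 reads, of GABAergic neurons to 17 and 6, of endothelium to 41 and 40, of fibroblasts and mesenchyme to 56 and 69, of the oligodendrocyte lineage to 72 and 54 and of astrocytes to 122 and 135. Members of these lists with 0 reads in both libraries included AQP4, SOX10, TMEM119 and GAD2, while other members had reads. Such zeros were 1 of 7 astrocyte, 2 of 7 oligodendrocyte lineage, 3 of 6 microglial and 1 of 6 GABAergic markers. No tested marker of these other cell types was called. In such bulk libraries fewer cells of a type and less RNA per cell cannot be told apart.

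Changes not seen with azacytidine were then identified by a test of the difference itself. Of 6631 genes tested in both pairs, the ratio differed in 584 (8.81%) by an exact conditional test with at least a 2-fold difference, with 432 ratios higher (6.51%) and 152 lower (2.29%) without azacytidine. Of the 364 genes called higher without azacytidine and tested in both pairs, 45 were called higher with it (12.4%, and 15.1% of the 299 called there), and 128 had a called difference. Of all genes tested with azacytidine, 4.75% were called higher and 3.95% lower. Of the 124 called lower, 18 were called lower with azacytidine (14.5%, and 7.17% of the 251 called there), and 38 had a called difference. The 2 pairs share no library. The difference test reuses the control and knockdown counts on which these genes were called. A share of called differences among them above the 8.81% of all genes is therefore no further result.

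PLCB4 changed in opposite directions in the 2 pairs. It had 103 reads in control and 935 in knockdown neurons, but 142 in the azacytidine library and 65 in the combined library, where it was called lower. The log2 ratios differed by 4.13 (interval 3.61 to 4.64, adjusted p = 3.5e-59). ACVR1, a bone morphogenetic protein receptor, had 16 and 126 reads against 37 and 31, and PHC2, a Polycomb protein, had 32 and 196 against 67 and 92. PLEKHG5, a guanine nucleotide exchange factor of motor neurons, had 10 and 70 reads against 25 and 32. LINC02315 had 2 and 53 reads against 57 and 0, and ARNT2-DT had 6 and 58 against 55 and 15. The knockdown reads assigned to a transcript were 67 for PLCB4, 59 for PHC2, 20 for ACVR1, 7 for PLEKHG5, 3 for ARNT2-DT and 0 for LINC02315.

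Among genes that were lower without azacytidine alone, KIAA0408 had 88 and 10 reads against 110 and 117, a difference in log2 ratio of -3.33 (interval -4.33 to -2.34, adjusted p = 1.2e-12). Only the knockdown library without azacytidine was low. JPT1, a microtubule-associated protein, had 42 and 8 reads against 61 and 50, and 22 and 5 against 27 and 13 on transcript-assigned reads. ADAM9, a membrane metalloprotease, had 288 and 92 reads against 37 and 41, but its transcript-assigned reads were 19 and 43. MIR124-2HG had 104 and 24 against 121 and 94, ANKRD10-IT1 52 and 1 against 25 and 18, and CDHR2, a protocadherin of microvilli, 48 and 11 against 24 and 42, with 1 read assigned in each library of this pair.

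**Figure D5:**
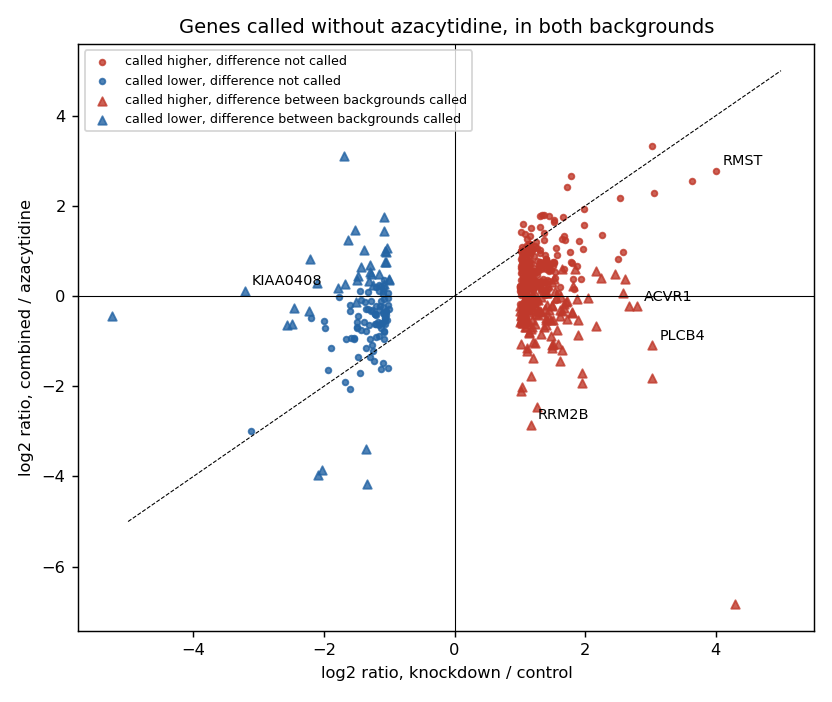
Log2 ratio of knockdown to control without azacytidine (horizontal axis) and of combined treatment to azacytidine (vertical axis) for the 488 genes called without azacytidine and tested in both pairs. Triangles are genes whose ratio differed between the backgrounds and circles the others, red where called higher and blue where called lower; 234 of the 364 red points lie above 0 on the vertical axis.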

How the data were processed

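Long reads of 4 libraries, 1 per group, were analysed, and the report turns on 2 of them. Per the file headers, the authors aligned reads with minimap2 to hg38, and the deposited annotation names Bambu as the program that found transcripts; versions and settings are not given in the sources used here. The deposited gene and transcript tables hold estimated counts, and a further deposited table holds counts of reads assigned to 1 transcript alone. Values of the gene table and of the table of uniquely assigned reads were even to within 0.00031, so 2 counts were taken as 1 read in every table. Coordinates are hg38: 99.96% of 166654 transcripts shared with GENCODE 29 had the same exons. Symbols were matched to the files' gene identifiers through a reference name table, which gave one to 41670 of 77187 annotated identifiers, and all 683 list entries matched.

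Genes averaging 20 or more reads in the pair were compared by an exact binomial test, two-sided, on TMM effective library sizes (edgeR 4.0.16), with Benjamini-Hochberg adjustment over all genes tested and a pseudocount of 0.5. Shares were compared by Fisher's exact test, with 10 or more reads at the locus or transcript in the pair and a mean of 20 transcript reads in the gene. The difference between backgrounds used an exact conditional test. Intervals are 95% Clopper-Pearson, Wilson or Newcombe intervals and cover counting error only. The functions were tested on simulated data. The length trend was a lowess fit with fraction 0.3.

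Named genes were TARDBP, the 12 highest and 12 lowest calls by the interval bound nearest 0, up to 4 called members of each list (otherwise the 2 with most reads), and 6 each way that differed from the treated pair. All loci called, 8 transcripts and 5 genes each way by share were also named; others named were chosen after their values were seen. Members and lists were chosen with earlier results of these data known. Alternatives included total counts and DESeq2 1.42.0 size factors. A few genes that this rule names are not reported here.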

Additional observations from a re-analysis of the deposited data

Results flagged for a closer look

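The knockdown ratio of 22 named genes differed between the backgrounds by the exact conditional test with Benjamini-Hochberg adjustment over 6631 genes. Values are the log2 ratio without azacytidine less that with it, from 1 library per group. The ratio was higher without azacytidine for LINC02315 (11.12), ARNT2-DT (4.84), PLCB4 (4.13), RRM2B (4.02), ACVR1 (3.02), FIG4 (2.58), PLEKHG5 (2.23), CACNA1D (2.08), PHC2 (1.97), ID4 (1.77), KCNQ3 (1.71), PTBP2 (1.37), L1CAM (1.22) and TRRAP (1.07). For LINC02315 the combined library had 0 reads, so its value depends on the pseudocount. The ratio was lower without azacytidine for ANKRD10-IT1 (-4.81), KIAA0408 (-3.33), CDHR2 (-3.04), JPT1 (-2.20), ADAM9 (-1.96), MIR124-2HG (-1.90), LRP8 (-1.85) and SQSTM1 (-1.49). ID4, an inhibitor of differentiation factor of progenitors, was not called without azacytidine, at 165 and 162 reads, and its value comes from the treated pair, at 68 and 17.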

How the results depend on the processing

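Gene calls depended on the scaling, on the reads counted and on the minimum. Genes higher numbered 588, and 329 with total counts, 266 at a minimum mean of 50 reads, 76 on unique counts, 370 with the length trend removed, 107 on transcript reads (an alternative chosen after the data were seen) and 3 in the additive edgeR model. Genes lower numbered 206, and 380 with total counts, 314 at a minimum mean of 10 reads, 46 at 50, 26 on unique counts, 35 on transcript reads and 0 in the additive edgeR model, which had 749 genes at an unadjusted p under 0.05. Differences between backgrounds numbered 584, and 249 at a minimum mean of 50 reads and 43 on unique counts. Loci higher numbered 11, and 6 with a mean of 40 transcript reads, 5 on unique counts and 2 on full-length counts. Loci lower numbered 4, and 2, 0 and 0. Transcripts higher fell from 569 to 33 on unique counts and to 1 on full-length counts, and transcripts lower from 501 to 27 and 4. The stricter minimums and the unique or full-length counts leave fewer features to test: 31 loci on unique counts and 8 on full-length counts. Of the 67 named genes that were called, 57 kept their call with total counts and 62 with DESeq2 size factors. With the length trend removed 50 kept it, and on transcript reads 10 of 34. On unique counts 1 of 11 kept its call, 9 were weaker and 1 reversed. The direction reversed on transcript reads for MIR124-2HG (0.39), ADAM9 (1.07), ELAVL4 (-0.20) and FIG4 (-0.23), and on unique counts for ELAVL4 (-0.57); the cause was not tested. Counts as deposited gave 649 higher and 244 lower. Of 23 list medians, each taken less that of all genes, 6 left the interval of the main result on unique counts. The other 17 stayed within it, and all 23 did with total counts. No paired analysis was possible because each group had 1 library. At this depth 122 of 2334 loci had enough reads to be tested.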
